A study of Mus musculus with 73 samples.

Results

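The contacts described here join a 180 kb stretch on the Tsix side of the X-inactivation centre, X:100440001-100620000 on the mouse build mm9, with the region upstream of it, X:98831149-100440000. They were read by 5C (chromosome conformation capture carbon copy), in which primers placed at the ends of restriction fragments are ligated and sequenced where 2 fragments were joined in fixed nuclei. A primer pair was a member when the midpoint of one fragment lay in the stretch and that of the other in the upstream region. By this rule 7026 of the 269808 primer pairs of the X region were members, from 23 forward and 24 reverse fragments in the stretch and 149 forward and 150 reverse fragments upstream. Pairs were chosen by position, but the intervals were proposed with earlier results of these counts known, so the selected values are given as a description and the tests below carry that limit.

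The cells were male mouse embryonic stem cells of the line E14Tg2a (strain 129/Ola, XY), grown in serum with LIF on gelatin without feeder cells. They therefore hold 1 X chromosome, which is active. Of the 73 samples of the series, 10 5C libraries were used, 2 for each of 5 genotypes: unedited wild type (WT, E14), a deletion named XiteE-del (codes F11 and G11), an inversion named XiteE-inv (code #4 in both libraries), a deletion named XiteC-del (codes E2 and E5) and an inversion named XiteC-inv (codes 62 and 65). Edits were made with CRISPR plasmids or TALENs. The labels do not explain the letters E and C. The labels carry a code B100 or B101 whose meaning is not given: replicate 2 of WT and replicate 2 of XiteE-inv are B101 and the other 8 libraries are B100. Both XiteE-inv libraries bear 1 code and may be 1 clone, and nothing in the labels says that the replicates were separate cultures, so p-values measure only the spread between these samples.

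The X-inactivation centre holds Xist, whose RNA silences an X chromosome, and Tsix, an antisense gene that keeps Xist low on the active X. Xite is a regulatory element of Tsix that lies beside it and carries enhancer activity. The centre is folded into topologically associating domains, blocks of chromatin whose fragments touch one another more often than they touch fragments beyond the block's edge, and Tsix and Xist lie in neighbouring domains. Contacts between a domain and the chromatin next to it are thus expected to be sparse, and such edges are often bound by CTCF.

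Libraries held 16267499 to 23928188 counts. The 2 B101 libraries stood apart: pairs over 100 kb apart held 44.1% and 41.2% of their counts, against 52.9% to 56.5% in the B100 libraries. XiteE-del, XiteC-del and XiteC-inv have no B101 library. Their comparisons with WT are therefore also given, in part, against WT replicate 1 alone, which is B100. Member pairs were thinly covered one by one, with 0 counts in 34.1% to 49.4% of them, and the most counted 1% held 18.4% to 23.1% of the member counts. Levels are therefore given as sums over fragments or bins, in counts per 1000000 counts of the library (CPM). A set of 2 libraries against 2 cannot give an exact permutation p under 0.33, and all 4 comparisons with WT share the same 2 WT libraries.

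The edits showed in the counts, outside the member fragments. In XiteE-del the fragments between X:100618973 and 100633845 were nearly lost: the fragment X:100618973-100623270 had 424 and 478 CPM over all its X pairs in WT and 59.3 and 64.9 CPM in XiteE-del. In XiteC-del the fragment X:100636563-100639613 had 74.3 and 81.1 CPM, against 2175 and 2498 in WT. The inversions showed at their junctions. The pair joining the left flank of the XiteE segment to that segment's right end had 91.1 and 123 CPM in WT and 211 and 341 in XiteE-inv, and the XiteC segment with its right flank had 248 and 312 CPM in WT and 52.2 and 93.4 in XiteC-inv. The last member fragment ends at X:100618972, directly before the fragments lost in XiteE-del. Both ends of every member pair lie upstream of all 4 edits, so no edit changed the linear distance within a member pair.

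In WT the stretch contacted the upstream region less than the distance between them gave on average. Member pairs held 1.22% and 1.27% of all counts in the WT libraries, against 16.9% and 21.1% for pairs within the upstream region and 2.63% and 3.37% for pairs within the stretch. On a 30 kb grid the members made 276 bin pairs with primers of 324 in the grid, the rest falling in 8 upstream bins without primers, 6 of which lie in a primer gap at X:99889289-100093263. Divided by the mean count per primer pair at the same distance in the same library, the observed/expected ratio summed over all members was 0.709 and 0.848 in WT. The same ratio was 1.44 and 1.45 within the stretch and 0.921 and 0.974 within the upstream region. For the next 180 kb beyond the stretch with the same upstream region it was 0.858 and 1.13. Single member bin pairs lay below 1 in 237 and 218 of 276 cases, with medians of 0.561 and 0.694. The expected value is a mean, and the share of all X bin pairs below 1 was not computed.

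The first 30 kb bin of the stretch had the highest contact with the upstream region in WT, also per primer pair and for its distance. This bin, next to the upstream region, had 3550 and 3593 CPM. The second bin had 1414 and 1613 CPM, the third 1055 and 1006, and the fourth 1179 and 1146. The fifth bin had 2378 and 2448 CPM and the last, X:100590001-100620000 on the Xite side, had 2666 and 2875. These sums follow the number of primer pairs, which was 1943 in the last bin and 747 and 748 in the third and the fourth. The observed/expected ratio takes account of distance and of the number of primer pairs, but not of how well single primers worked. It was 1.05 and 1.09 in the first bin, 0.50 and 0.641 in the second and 0.574 and 0.633 in the third. In the fourth bin it was 0.666 and 0.772, in the fifth 0.714 and 0.888 and in the last 0.646 and 0.869. On this scale the last bin did not stand above the fourth in both libraries and lay below the fifth in both.

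Upstream, contacts were concentrated near the stretch. The 30 kb directly before it, X:100410001-100440000, had 2116 and 2844 CPM with the stretch in WT, and the 180 kb before it, X:100260001-100440000, had 5049 and 6365. The level was 1364 and 1871 CPM at X:100080001-100260000, of which the single bin X:100170001-100200000 gave 891 and 1285. The window X:99900001-100080000 had no primers. The 3 windows from X:99360001 to 99900000 had 814 to 1189 CPM in the WT libraries, and the 3 from X:98820001 to 99360000 had 438 to 1161. In every one of those 6 distant windows the B101 library was the lower of the WT pair, and in the nearest 2 windows it was the higher.

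The WT map had a few bin pairs well above their distance. The highest ratios were those of X:100440001-100470000 with X:98910001-98940000, at 3.31 and 4.63, and of X:100560001-100590000 with X:100410001-100440000, at 1.76 and 2.25. Between X:100530001-100560000 and X:99330001-99360000 the WT libraries disagreed, at 3.49 and 0.834. The lowest ratios were those of X:100470001-100500000 with X:100200001-100230000 (0.032 and 0.194, from 3 primer pairs), of X:100560001-100590000 with X:98850001-98880000 (0.139 and 0.101) and of X:100470001-100500000 with X:99450001-99480000 (0.176 and 0.108).

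The XiteE deletion asks how the Tsix side contacts its upstream neighbours when that segment is absent. Member pairs held 1.46% and 1.54% of counts in XiteE-del, 1.503% ± 0.056 (SD, n = 2) against 1.246% ± 0.031 in WT, which is 1.21-fold. Both XiteE-del libraries lay above both WT libraries. The next 180 kb beyond the stretch, which holds the edited segments, had 1.27% and 1.25% with the same upstream region against 1.22% and 1.16% in WT, 1.06-fold. Pairs within the stretch were lower in XiteE-del, at 2.41% and 2.50%. The gain in member share was 1.26-fold with the forward primer on the Tsix side and 1.16-fold with the reverse primer there.

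**Figure D1:**
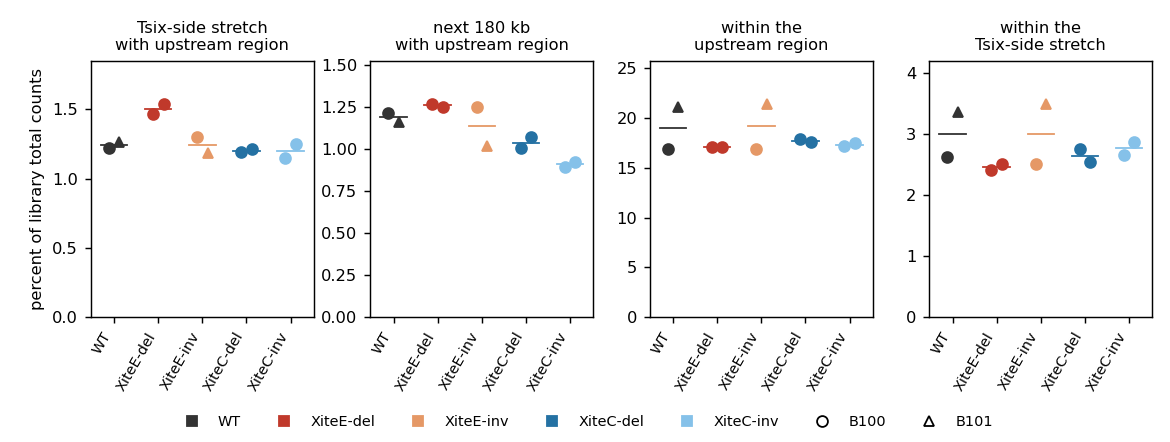
Percent of each library's counts (y axis) in 4 classes of primer pairs: the stretch with the upstream region, the next 180 kb with the upstream region, pairs within the upstream region and pairs within the stretch, by genotype (x axis). Circles are B100 libraries, triangles B101 libraries and lines the mean of 2; in the first panel both XiteE-del libraries, at 1.46% and 1.54%, sit above every other library, and the triangles stand apart in the panels of pairs within one region.

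Pairs over 100 kb apart held 55.5% and 55.0% of counts in XiteE-del, against 54.8% in the B100 and 44.1% in the B101 WT library. The XiteE-del values lay within the range of the B100 libraries of all genotypes, 52.9% to 56.5%. As a percent of pairs over 100 kb apart, members held 1.82 and 2.24 in WT and 2.24 and 2.37 in XiteE-del, so that the B101 WT library lay level with the lower XiteE-del library. Against the B100 WT library alone the XiteE-del values stayed higher. The observed/expected ratio over all members, 0.834 and 0.876 in XiteE-del, likewise overlapped the WT pair through the B101 library. The part of the B code in this share was not tested beyond these values.

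Within the stretch, the difference from WT was largest in the last 30 kb, the bin that borders the deleted segment. There XiteE-del had 4220 and 4514 CPM against 2666 and 2875 in WT, 1.58-fold, and no other library of any genotype was above 3071. The fourth bin had 1489 and 1465 CPM (1.27-fold) and the fifth 2662 and 2828 (1.14-fold). The first 3 bins were at 1.04-fold to 1.08-fold, and the first 150 kb together at 1.10-fold. In 5 of 6 bins both XiteE-del libraries lay above both WT libraries, as they did in 21% of the 100 bins downstream of the upstream region summed in the same way. Against the B100 WT library alone the last bin was at 1.64-fold and the first 150 kb at 1.11-fold. Its observed/expected ratio was 1.01 and 1.07 in XiteE-del, 1.37-fold over the WT mean, with both libraries above both WT values.

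**Figure D2:**
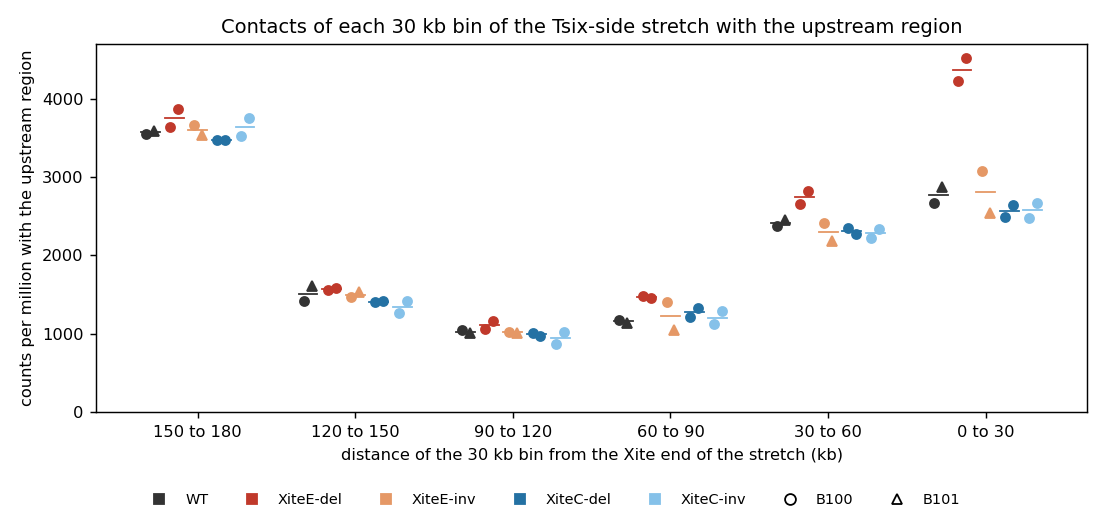
Level of each of the 6 bins of 30 kb with the whole upstream region (y axis, CPM) against the distance of the bin from the Xite end of the stretch (x axis, kb), for each library by genotype. The 2 XiteE-del libraries leave the others in the bin nearest the Xite end, at 4220 and 4514 CPM, while in the bin farthest from it all libraries lie between 3473 and 3862.

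At the level of single restriction fragments the last 30 kb stood out as a block. Of its 13 fragments, 11 had both XiteE-del libraries above both WT libraries and none had both below; folds ran from 1.09 to 2.13 with a median of 1.58. Against the B100 WT library alone, 13 of 13 were above. Of the 34 fragments in the first 150 kb, 12 were above and 2 below, with folds from 0.761 to 1.48 and a median of 1.11. Over all 47 fragments, 23 were above and 2 below, where 22.9% and 7.46% of the 737 fragments tested downstream of the upstream region were. The fragment X:100613219-100615704 had 170 and 220 CPM with the upstream region in WT and 373 and 455 in XiteE-del, 2.13-fold. The last member fragment, X:100618507-100618972, next to the deleted segment, had 212 and 269 CPM in WT and 401 and 458 in XiteE-del, 1.78-fold. Over all of their X contacts the XiteE-del libraries lay between the WT libraries: X:100613219-100615704 had 2048 and 2472 CPM in WT and 2154 and 2221 in XiteE-del, and X:100618507-100618972 had 2047 and 2451 in WT and 2074 and 2100 in XiteE-del. Both named fragments were picked after their values were seen.

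**Figure D3:**
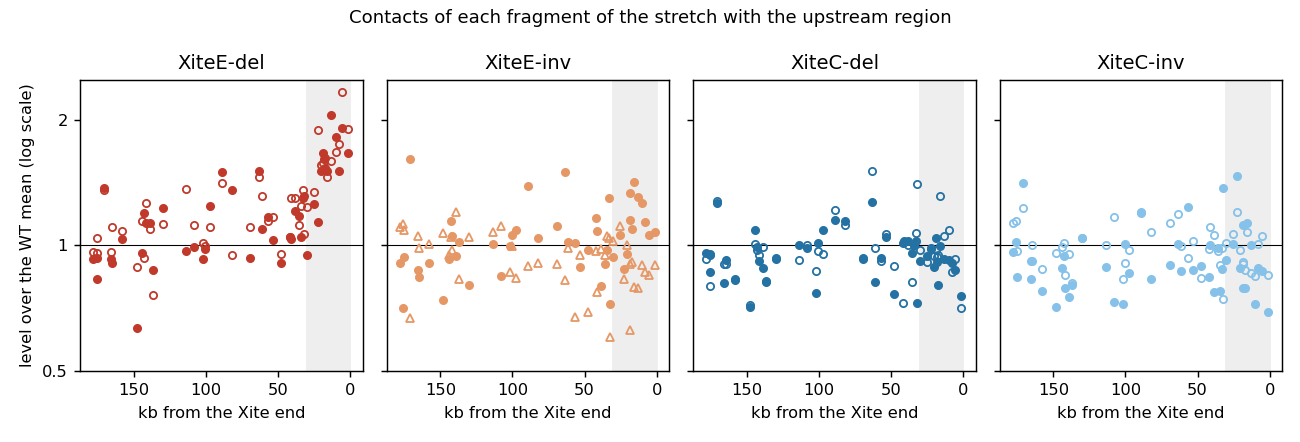
Each of the 47 fragments of the stretch in 4 panels, 1 per edited genotype: its level with the upstream region over the WT mean (y axis, log2 scale) against its distance from the Xite end (x axis, kb). Filled points are replicate 1, open points replicate 2 (triangles B101) and the grey band is the last 30 kb, where the means of the 13 fragments in XiteE-del lie at 1.09-fold to 2.13-fold and those of the other genotypes on both sides of 1.

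The last bin was higher in XiteE-del with 7 of the 8 upstream windows that had primers. The nearest window, X:100260001-100440000, was at 1.48-fold (923 and 1244 CPM in WT, 1573 and 1636 in XiteE-del). The next, X:100080001-100260000, was at 2.06-fold (379 and 449 CPM, then 833 and 874). Beyond the primer gap the folds were 1.65, 1.85, 1.59 and 1.46 in the windows from X:99720001 down to 99180001, then 0.992 at X:99000001-99180000 and 1.25 at X:98820001-99000000. Against the B100 WT library alone these 8 folds ran from 0.813 to 2.25. Both XiteE-del libraries lay above both WT libraries in those 7 windows, and in X:99000001-99180000 the groups overlapped (225 and 144 CPM in WT, 156 and 210 in XiteE-del). How often other 30 kb bins did so with these windows was not computed, so the count has no background beside it. Among the 100 bins summed over the upstream region, the median log2 fold change of XiteE-del over WT was itself 0.40.

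**Figure D4:**
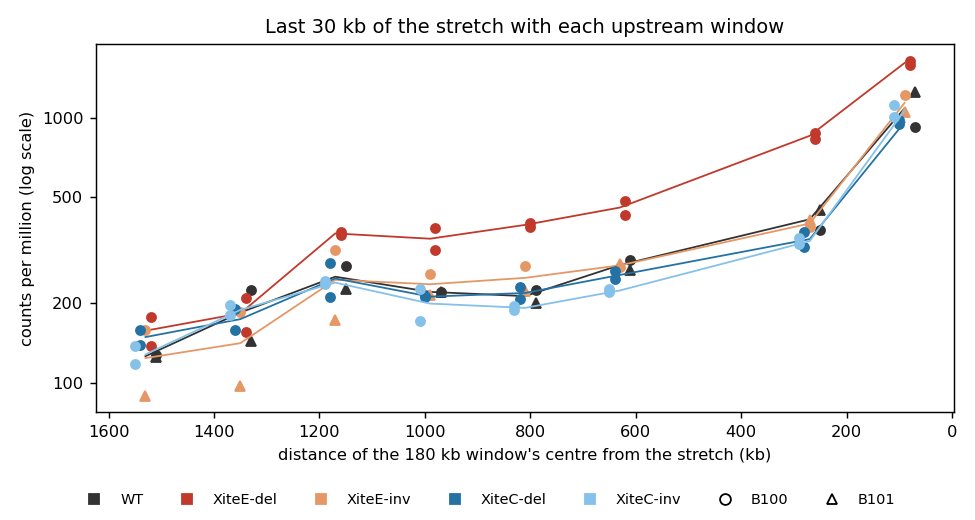
Level of the last 30 kb of the stretch with each of the 8 upstream windows of 180 kb that hold primers (y axis, CPM, log scale) against the distance to the window (x axis), for each library. XiteE-del lies above the other libraries in the windows near the stretch, at 833 and 874 CPM in X:100080001-100260000 against 325 to 449 elsewhere, and merges with them in the farthest windows.

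For the whole stretch, both XiteE-del libraries lay above both WT libraries in 5 of the 8 upstream windows and below in 0, against 21.5% and 5.23% of all 325 pairs of 180 kb bins tested. The 8 folds of the CPM means ran from 1.07 in the nearest window to 1.39 in X:99540001-99720000 and X:99720001-99900000. The edgeR log2 fold changes ran from 0.09 to 0.48, and the quasi-likelihood test with Benjamini-Hochberg adjustment called none (smallest p 0.024, adjusted p 0.772), as in 0% of all such pairs. Values just inside and outside the rule's limits were as follows. With the upstream region short of its last 30 kb, the last bin of the stretch was at 1.59-fold in XiteE-del, and the 30 kb bin beyond it, which is partly deleted, at 1.18-fold. At the other limit the first bin of the stretch was at 1.12-fold and the bin before it at 0.954-fold.

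In the test over 10617 pairs of 30 kb bins, 0 members were called in any comparison, as were 0% of all bin pairs, with edgeR's quasi-likelihood test and Benjamini-Hochberg adjustment at 0.05. At an unadjusted p under 0.05 there were 21 members for XiteE-del against WT (399 among all pairs), and DESeq2 called 0 members. The spread was wide, with a biological coefficient of variation of 55.1% and 5 residual degrees of freedom. For XiteE-del, 192 of 276 members had a log2 fold change above 0, with a median of 0.31 against 0.13 over all bin pairs. In 99 members both libraries lay above both WT libraries and in 20 below, that is 35.9% and 7.25%, where all pairs gave 21.2% and 11.4%. Of the 46 members in the last bin, 41 had a log2 fold change above 0, 32 had both libraries above both, and the median was 0.59. The member with the smallest p was X:100590001-100620000 with X:100080001-100110000, at 50.7 and 56.5 CPM in WT and 165 and 134 in XiteE-del (log2 fold change 1.48, SE 0.30, adjusted p 0.969), and was not called. The lowest p in the other direction was that of X:100530001-100560000 with X:99030001-99060000, at 29.5 and 15.3 CPM in WT and 14.1 and 9.65 in XiteE-del, also not called.

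Since no pair was called, each bin and each fragment was also summed over the whole upstream region and tested among all such bins or fragments, a choice made after those results. For the last bin the log2 fold change of XiteE-del over WT was 0.66 (SE 0.16, p 0.00425, adjusted p 0.425), with the smallest p but only the ninth highest log2 fold change of the 100 bins tested, of which 0% were called. The median over the 100 bins was 0.40 in this fit. The other 5 bins of the stretch, at 0.06 to 0.35, lay below it, and the median of the 6 was 0.15. With TMM scaling, which moved the median over all bins to 0.00, the last bin was at 0.00 (adjusted p 0.997), rank 51 of 100 by log2 fold change, and the other 5 bins turned negative, at -0.61 to -0.28. Among fragments 0 of 47 were called, against 0.271% of all tested, and the median log2 fold change was 0.22 over the 47 and 0.25 over all. The 2 fragments behind that share, X:100623271-100629519 and X:100629520-100633845, lie in the deleted segment. Across 4 kinds of fit (bin pairs of 30 kb, bin pairs of 180 kb, summed bins and summed fragments) no member was called when all 10 libraries entered without a term for the B code.

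With the B code as a covariate the last bin was called: its log2 fold change was 0.61 (SE 0.12, adjusted p 0.000304), while the median over the 100 bins was -0.12 and 4% of them were called. With the 8 B100 libraries alone it was 0.71 (SE 0.13, adjusted p 0.00681), with a median of -0.07 and 1% called. TMM scaling kept the call with the covariate (0.74, adjusted p 0.00223) and not in the B100 libraries (0.78, adjusted p 0.0515). The covariate was a listed alternative for the bin pairs, while its use on the summed bins and the restriction to B100 were chosen after the data were seen. In the B100 libraries XiteE-del is set against 1 WT library, whose spread is assumed to be that of the other groups, and the covariate is estimated from the WT and XiteE-inv libraries alone. The edgeR quasi-likelihood test also shares variance between bins. With the covariate its unadjusted p for the last bin was 3.04e-06, against 0.00425 without, at log2 fold changes of 0.61 and 0.66. How far the call rests on variance shared with other bins was not tested.

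**Figure D5:**
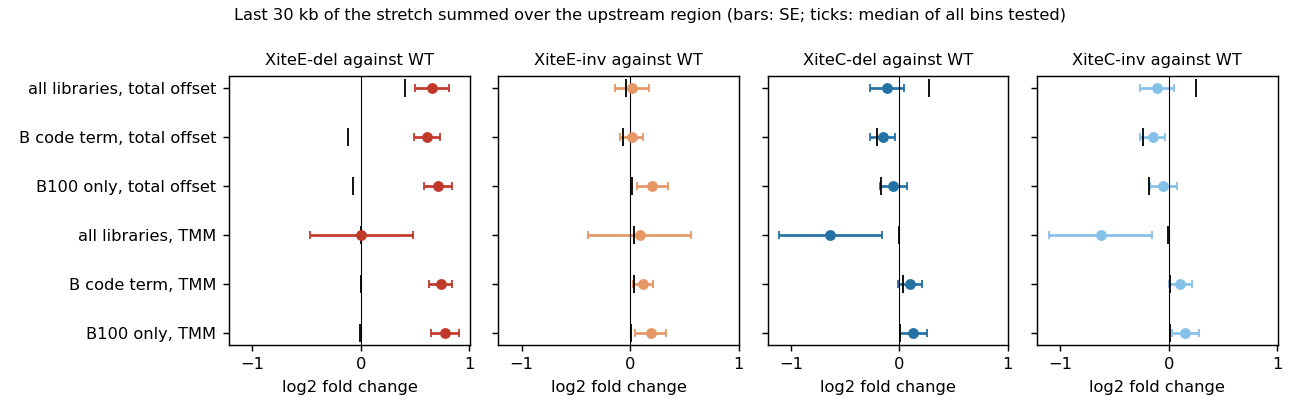
Log2 fold change of the last 30 kb bin summed over the upstream region (x axis, points with SE bars), for each of the 4 edited genotypes against WT under 6 settings of the fit; ticks mark the median over all bins tested in the same fit. For XiteE-del the point lies at 0.61 to 0.78 in every setting but TMM scaling alone, where it falls to 0.00 together with the median.

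The calls in the other fits with the B code lay in the last bin or in the window X:100080001-100260000. Among 30 kb bin pairs, 1 of 276 members was called with the covariate (0.0471% of all pairs), X:100590001-100620000 with X:100170001-100200000, 1.11 higher on the log2 scale (SE 0.16, adjusted p 0.00677). In the B100 libraries 2 members were called (0.0754% of all), the same pair at 1.12 (adjusted p 0.0383) and X:100590001-100620000 with X:99660001-99690000 at 2.99 (SE 0.48, adjusted p 0.0383). Among 180 kb pairs, 1 of 8 was called in each (0.615% and 0.308% of all), the stretch with X:100080001-100260000, at 0.59 with the covariate (SE 0.10, adjusted p 0.0266) and 0.67 in B100 alone (SE 0.09, adjusted p 0.0377). That window had 2106 and 2234 CPM in XiteE-del. Among fragments, X:100613219-100615704 was called with the covariate (log2 fold change 1.10, adjusted p 0.0138; 1 of 47 against 1.36% of all) and in B100 alone (1.28, adjusted p 0.0104), where X:100618507-100618972 was called too (1.02, adjusted p 0.0494; 2 of 47 against 1.08%).

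The XiteE inversion keeps the segment that XiteE-del lacks, in the opposite orientation. Member pairs held 1.30% and 1.19% of counts in XiteE-inv, on both sides of the WT pair. The last bin had 3071 and 2543 CPM, 1.01-fold over WT. The B100 library stood above the B100 WT library (3071 against 2666 CPM) and the B101 library below the B101 WT library (2543 against 2875). The 13 fragments of the last bin ran from 0.854-fold to 1.11-fold. Among bin pairs 141 of 276 members had a log2 fold change above 0, with a median of 0.01 against -0.03 over all, and 10 members (239 of all pairs) had an unadjusted p under 0.05. Both libraries lay above both WT libraries in 39 members and below in 43, against 7.17% and 12.5% of all pairs. The members with the smallest p in the higher and the lower direction, neither called, were X:100560001-100590000 with X:100290001-100320000 (17.2 and 35.2 CPM in WT, 45.5 and 54.6 in XiteE-inv) and X:100590001-100620000 with X:98970001-99000000 (31.3 and 31.2 CPM, then 10.8 and 10.8; log2 fold change -1.54, SE 0.36, adjusted p 1).

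Set directly against the deletion, the inversion was lower in the last bin when scaled by the library total. There the XiteE-inv libraries lay below both XiteE-del libraries, at -0.64 on the log2 scale in the fit of all libraries (adjusted p 0.494). The median over all 100 bins was -0.45 in that fit, the median of the 6 bins of the stretch was -0.19, and the last bin ranked 85 of 100 from the highest log2 fold change; with TMM scaling the last bin was at 0.0859. A covariate for the B code gave -0.60 (adjusted p 0.0003, 1% of bins called), and in the B100 libraries alone, where XiteE-inv has 1 library, -0.51 (adjusted p 0.126). In 5 of 6 bins of the stretch both inversion libraries were below both deletion libraries, against 13% of all 100 bins. The same held for 6 of 8 windows of 180 kb, with 0 above, against 13.8% and 4.92% of all pairs, and for 25 of 47 fragments against 22.1%. Among 30 kb pairs 94 members were below and 19 above, against 21.8% and 10% of all, and 77 of 276 had a log2 fold change above 0 with a median of -0.31 against -0.18. In the last bin 29 of 46 pairs were below, and the median was -0.60. In the fit of all libraries 0.407% of all fragments were called, all 3 of them in the segment that XiteE-del lacks. No fragment of the stretch was called without the covariate. With it X:100613219-100615704 was called at -1.17 (SE 0.22, adjusted p 0.00587; 1 of 47 against 0.543%), and 1 bin pair, X:100590001-100620000 with X:100170001-100200000, at -1.18 (adjusted p 0.0057; 0.0377% of all pairs).

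The XiteC deletion lies farther from the stretch than the XiteE segment. Member pairs held 1.19% and 1.21% of counts, both below the WT pair, at 0.966-fold. The last bin had 2489 and 2640 CPM (0.926-fold), with fragments from 0.732-fold to 1.15-fold. Against the B100 WT library alone it was at 0.962-fold. Its observed/expected ratio was 0.624 and 0.642, 0.836-fold over the WT mean. The WT values were 0.646 (B100) and 0.869 (B101). With the B code as a covariate its log2 fold change was -0.15 (SE 0.12), and the median over the 100 summed bins moved from 0.27 to -0.21. In that fit 11 of the 100 bins were called, none in the stretch. In the XiteC-del libraries the next 180 kb, which holds the deletion, had 1.01% and 1.07% with the upstream region, 0.873-fold, also with both libraries below WT. Among bin pairs 140 of 276 members had a log2 fold change above 0, with a median of 0.01 against 0.09 over all, and 5 (182 of all) had an unadjusted p under 0.05. Both libraries lay above both WT libraries in 41 members and below in 38, against 20% and 9.55% of all pairs. The members with the smallest p among those higher and among those lower, neither called, were X:100560001-100590000 with X:100290001-100320000, at 46.3 and 61.1 CPM in XiteC-del, and X:100470001-100500000 with X:99480001-99510000, at 59.4 and 31.4 CPM in WT and 19.9 and 23.4 in XiteC-del.

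In the XiteC inversion, member pairs held 1.15% and 1.25% of counts, at 0.962-fold, and 1 library lay within the WT pair. The last bin had 2478 and 2672 CPM (0.929-fold), with fragments from 0.771-fold to 1.34-fold. Against the B100 WT library alone it was at 0.966-fold. Its observed/expected ratio was 0.601 and 0.665, 0.836-fold over the WT mean. With the B code as a covariate the median log2 fold change over the 100 summed bins moved from 0.25 to -0.24. In that fit 18 of the 100 bins were called, none in the stretch. The next 180 kb was lower than in any other genotype, at 0.895% and 0.925% with the upstream region, 0.764-fold, so that the 2 neighbouring intervals differed in how far they stood from WT. In the first bin beyond the stretch the level with the upstream region, taken without its last 30 kb, was 0.719-fold in XiteC-inv and 0.708-fold in XiteC-del. Among bin pairs 132 of 276 members had a log2 fold change above 0, with a median of -0.04 against 0.04 over all, and 5 (271 of all) had an unadjusted p under 0.05. Both libraries lay above both WT libraries in 33 members and below in 53, against 17% and 12.7% of all pairs. In the higher direction the smallest p was that of X:100530001-100560000 with X:98940001-98970000 (0.476 and 4.00 CPM in WT, 15.0 and 4.56 in XiteC-inv; unadjusted p 0.0867 in edgeR, not called), and in the lower direction that of X:100470001-100500000 with X:99480001-99510000 (18.8 and 17.5 CPM in XiteC-inv), not called.

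No bin pair, bin or fragment of the stretch was called between the 2 XiteC edits. Beyond the stretch 2 fragments summed over the upstream region were called, X:100633846-100636562 and X:100636563-100639613. Their log2 fold changes of XiteC-inv over XiteC-del were 2.63 and 2.55. Set against XiteC-del, XiteC-inv had both libraries above in 32 members and below in 54, against 12.8% and 19.9% of all bin pairs. Of 276 members 119 had a log2 fold change above 0, with a median of -0.07 against -0.05 over all, and 0 had an unadjusted p under 0.05, while 107 of all pairs did. For the 180 kb windows, no comparison with WT of XiteE-inv, XiteC-del or XiteC-inv was called, with log2 fold changes from -0.22 to 0.22 in the fit without a B code term. With the B code as a covariate none was called either. The log2 fold changes then ran from -0.39 to 0.03 in XiteC-del, from -0.32 to 0.06 in XiteC-inv and from -0.105 to 0.13 in XiteE-inv. The lowest value of each XiteC edit was that of X:99180001-99360000.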

How the data were processed

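The deposited 5C files hold, per the file headers and values, raw counts per pair of a forward and a reverse primer, 1 matrix per library, and fragment positions on mm9 in separate files. The submitters' processing notes name Bowtie2 and mm9, and no source used here gives the filters or the counting. Sample titles gave the groups. The other samples of the series were not analysed here. No mm9 genome was at hand, so no sequence is printed and genes are named as background only. Members, intervals and lists were chosen with earlier results of these data known.

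Counts were summed over pairs of 30 kb or 180 kb bins by fragment midpoint. X bin pairs averaging 10 counts or more per library were fitted with edgeR 4.0.16 (R 4.3.3) by a quasi-likelihood F test, with a mean per group and the library total as offset, and adjusted by Benjamini-Hochberg over all of them (threshold 0.05). The summed bins and fragments were fitted alike. An SE is the absolute log2 fold change over the square root of F. CPM is counts per 1000000 counts of the library, without correction for primers. Named bin pairs are up to 3 called members per genotype and direction, or the one with the smallest p where none was called; all 180 kb windows; the 3 highest and 3 lowest observed/expected ratios in WT; the bins at the limits; and the 6 bins of the stretch. DESeq2 1.42.0 was the alternative tool. In a test on simulated data for XiteE-del against WT, 200 of 10617 bin pairs were changed, drawn from those averaging 50 counts or more. Of these changes, 1% of the 2-fold and 24% of the 4-fold ones were found, and 0 unchanged pairs were called. Most changes of either size in single bin pairs were thus not detectable at this depth and spread. Precision is limited by 2 libraries per group.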

Additional observations from a re-analysis of the deposited data

How the results depend on the processing

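The log2 ratio of the member share was 0.27 for XiteE-del against WT and moved to 0.18 over pairs more than 100 kb apart, 0.33 with only forward and 0.22 with only reverse primers on the Tsix side. XiteC-del moved to -0.16 over long pairs, -0.00277 and -0.0906 by primer and -0.0827 without the extreme primers, XiteC-inv to -0.19 and XiteE-inv against XiteE-del to -0.15 over long pairs, and XiteE-inv against WT to 0.0915 in the B100 libraries. Leaving out 1 library gave 0.23 to 0.31 for XiteE-del, -0.08 to -0.02 for XiteC-del, -0.12 to 0.00 for XiteC-inv, -0.07 to 0.07 for XiteE-inv, -0.34 to -0.20 for XiteE-inv against XiteE-del and -0.0677 to 0.0547 for XiteC-inv against XiteC-del. Member calls were 0 in every leave-one-out fit and became, with the B code as a covariate, 1 bin pair, 1 window, 1 summed bin and 1 fragment for XiteE-del, and 1 bin pair, 1 summed bin and 1 fragment for XiteE-inv against XiteE-del. In the B100 libraries they were 2, 1, 1 and 2 for XiteE-del. With TMM added, the covariate called 7 fragments and 1 bin for XiteE-del and 1 of each for XiteE-inv against XiteE-del. The shares called over all fragments and bins in these TMM fits are not given here, so the counts cannot be read as particular to the stretch.

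The last bin of XiteE-del (0.66, not called) was called at 0.61 with the covariate, 0.71 in the B100 libraries and 0.74 with the covariate and TMM; without 1 library it was 0.60 to 0.71 and not called. XiteE-inv against XiteE-del was called at -0.60 and -0.62 with the covariate, without and with TMM, and reversed to 0.0859, uncalled, under TMM alone. Uncalled values near 0 changed sign: XiteC-del to 0.10 and 0.13 and XiteC-inv to 0.11 and 0.15 (TMM with the covariate, then in B100), XiteC-inv against XiteC-del to -0.0335 with forward primers, and XiteE-inv against WT to -0.0165 with reverse primers. Their leave-one-out ranges were -0.0494 to 0.0592 for XiteC-inv against XiteC-del and -0.12 to 0.15 for XiteE-inv against WT. The cause was not tested. The replicate numbers do not pair the samples (correlation of deviations 0.595 for WT with XiteE-inv, whose numbers follow the B code, and -0.176 to 0.222 otherwise). A replicate block called 0 members in every comparison and left the last bin of XiteE-del at 0.66 (adjusted p 0.636). Counts over all 30 kb bin pairs were 0 in the planned fit and up to 33 with the covariate, 30 in the B100 libraries and 30 by DESeq2.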
